A study of Mus musculus with 24 samples.

Results

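The matrix metalloproteinases (MMPs), the ADAM, ADAMTS and ADAMDEC1 proteases and the tissue inhibitors of metalloproteinases (TIMPs) were followed in the mouse uterus after progesterone (P4). Members were the probe sets of the array whose annotation names 1 gene only, with a symbol of the Mmp, Timp, Adam or Adamts series or Adamdec1. These were 44 of the 12422 non-control probe sets and 34 of the 8251 genes that single-gene probe sets name. They comprised 13 Mmp genes on 16 probe sets, 16 Adam genes on 20, Adamts1 and Adamdec1 on 1 each, and 3 Timp genes on 6. Another 2 probe sets that name Adam1a together with a second gene were left out. 25 genes had 1 probe set, 8 had 2, and Timp2 had 3.

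MMPs are zinc endopeptidases that cut collagens, proteoglycans and other proteins outside the cell, and most are made as inactive proenzymes. TIMPs bind the active site of MMPs and of some ADAMs and block it. ADAMs are membrane proteins; some shed growth factors, cytokines and receptors from the cell surface, and others lack a working catalytic site or act in sperm. In the human endometrium several MMPs are low while progesterone is high and increase when it is withdrawn.

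The study asked which uterine genes respond to P4 through its receptor. All mice, whether progesterone receptor knockout (PRKO) or wild type (WT), were ovariectomized at 6 weeks of age and injected 2 weeks later, so that every group lacked ovarian hormones. The 8 groups of 3 arrays each were PRKO with P4, PRKO with vehicle, WT with P4 and WT with vehicle, each at 4 h and 40 h. P4 was given at 1 mg per mouse in sesame oil and the vehicle was sesame oil alone; the earlier uteri were taken 4 h after a single injection and the later ones 4 h after the last of 4 injections given 12 h apart, which the labels call 40 h. Each genotype and treatment was a pool of RNA from 5 mice, and nothing in the labels tells if a group's 3 arrays came from 1 pool or several. The p-values therefore measure the spread between arrays, which may be technical. The labels name the knockout only as PRKO and give no more of its allele.

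Signals are MAS5 intensities of an Affymetrix array, scaled so that the trimmed mean of every array was 500; fold changes compare groups on 1 probe set. Ranks of brightness over probe sets describe how strongly the array lit up and not transcript abundance, since probe sets differ in response. Deposited array medians lay between 323.2 and 342.6, and arrays of a group correlated at 0.9737 to 0.9945 on the log2 scale. The probe set for Pgr, the deleted gene, had a mean signal of 126.2 ± 4.51 in PRKO vehicle uteri at 4 h and 145 ± 4.53 in WT vehicle uteri at 4 h (SD, n = 3 each), and of 129.6 ± 9.64 in PRKO vehicle uteri at 40 h and 146.9 ± 16 in WT vehicle uteri at 40 h. The labels do not place the probes relative to the deleted part, so this probe set does not settle the genotype labels. All 7 uterus marker genes on the list were measured, the dimmest, Wnt7a, at a mean signal of 320.1. 2 WT arrays at 4 h, replicate 2 of P4 and replicate 2 of vehicle, had Gapdh 3′/5′ signal ratios of 3.25 and 3.67, against 1.23 to 1.86 on the other 22 arrays.

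Of the 44 member probe sets, 20 lay in the dimmest 25% of probe sets by mean signal, and 5 among the brightest 25%. No filter on dim signal was applied, so all 44 were tested; 11 carry a suffix letter that marks a relaxed rule of probe choice in the array's design. Timp3, Mmp14, Timp2, Timp1 and Adam5 gave the 5 brightest, and the single probe set for Adamts1 lay at percentile 1.42. The other probe sets of these genes were dim, at percentile 16.6 for Adam5, 1.75 for Timp1, and 12.5 and 10.9 for Timp2. The log2 signals of the 2 Adam5 probe sets correlated at −0.085 over all arrays, so the bright one alone does not show strong Adam5 expression. Expression differed little between the groups: when each probe set's log2 group mean was set against its mean over the 8 groups, 333 of 352 values were within 0.25, 19 were farther and 4 were beyond 0.5. The most negative of these was −0.82 for Adamdec1 in WT uteri given P4 for 40 h, and the most positive was 0.76 for Mmp12 in WT vehicle uteri at 4 h.

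**Figure D1:**
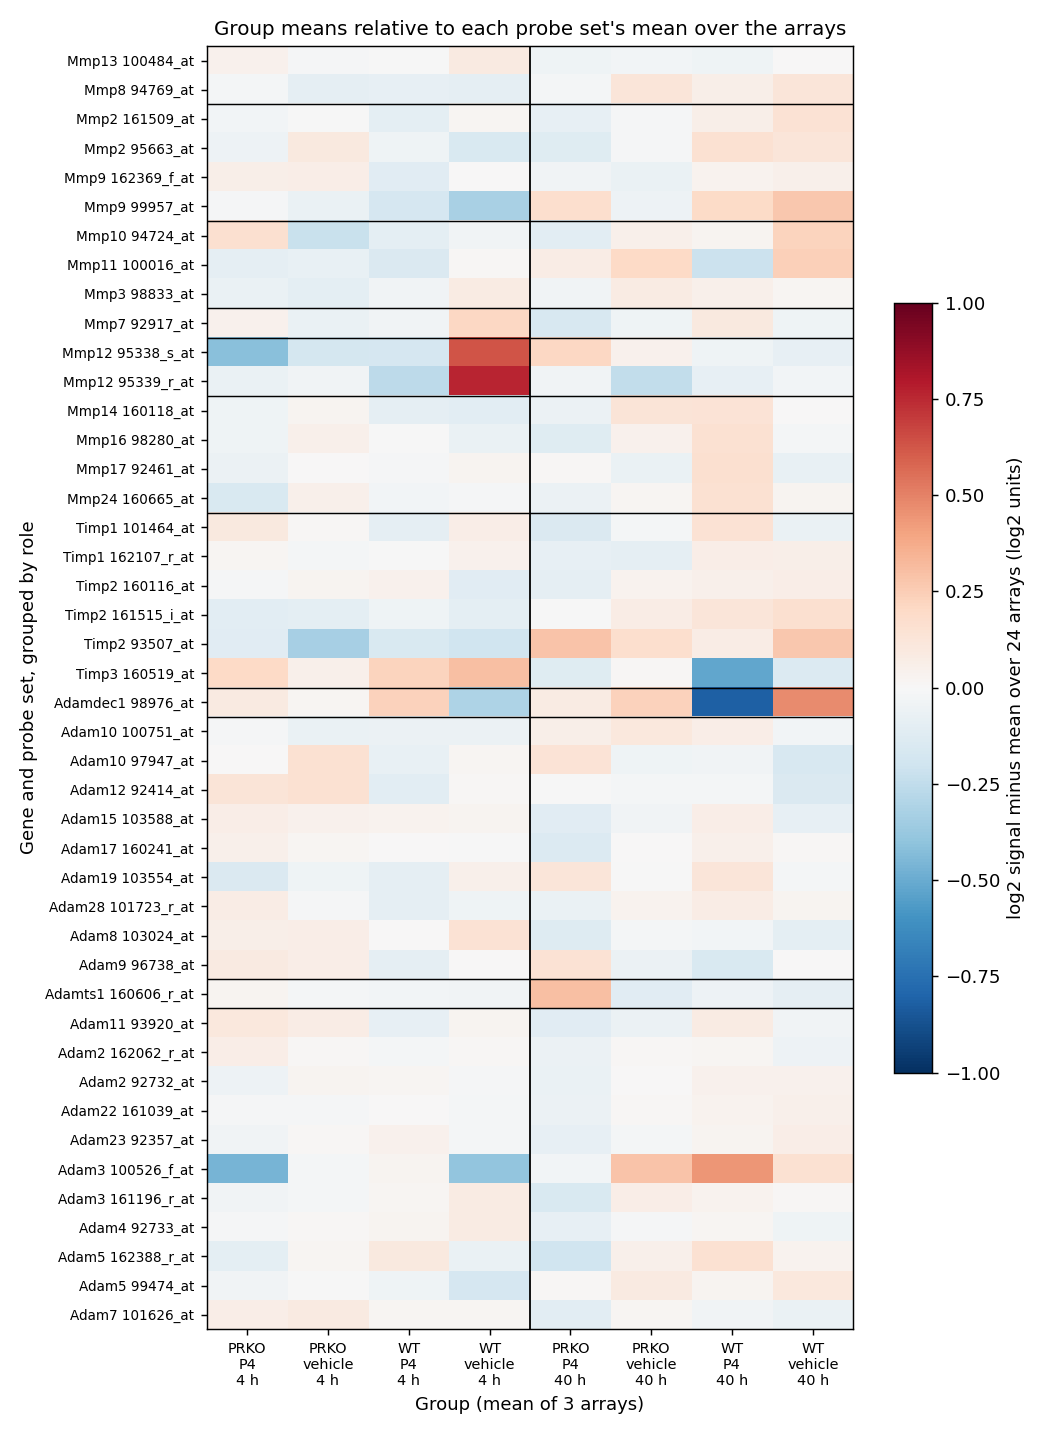
Log2 deviation of each member's group mean (rows, 44 probe sets) from its mean over the 8 groups (columns: PRKO P4, PRKO vehicle, WT P4 and WT vehicle at 4 h and then 40 h). Most cells are pale, with 333 of 352 within 0.25, and the strongest are Adamdec1 at −0.82 in WT P4 at 40 h and Mmp12 at 0.76 in WT vehicle at 4 h.

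Adamdec1 was the member that changed most. It encodes decysin, an ADAM-related protease with an unusual zinc-binding site, known in humans from dendritic cells and macrophages, and it lies at chr14:68563387-68582072 (GRCm38.p6) between Adam7 and Adam28. In WT uteri at 40 h its signal was 153.9, 142.6 and 156.7 with P4, against 323.7, 419.8 and 528.3 with vehicle. All 3 P4 arrays were below all 3 vehicle arrays, with means of 151.1 ± 7.47 and 423.9 ± 102 (SD, n = 3 each). The log2 difference was −1.29 ± 0.21 (SE; 95% interval −1.72 to −0.86), with a limma adjusted p of 0.00123 over 12422 probe sets, a fall to 0.408 of vehicle on the log2(signal + 32) scale.

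At 4 h Adamdec1 ran the other way without passing the test. WT uteri had 464.9, 341.5 and 262.3 with P4 at 4 h, against 210.4, 317.7 and 175.4 with vehicle, so the groups overlapped. The log2 difference was 0.54 ± 0.21 (limma adjusted p = 0.543). The P4 effect therefore differed between the times by −1.84 ± 0.29 (40 h minus 4 h; 95% interval −2.45 to −1.23; limma adjusted p = 0.00249). Each time had its own vehicle arrays, and the WT vehicle mean itself was 234.5 ± 74.2 at 4 h and 423.9 ± 102 at 40 h (SD, n = 3 each).

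In PRKO uteri Adamdec1 was not called at either time. At 40 h its signal was 275.1, 330.1 and 329.1 with P4, against 432.7, 339 and 285.1 with vehicle, and at 4 h it was 374.5, 231.4 and 347.4 with P4, against 328, 296.5 and 261.9 with vehicle. The groups overlapped at both times, with log2 differences of 0.07 ± 0.21 at 4 h (limma adjusted p = 1) and −0.15 ± 0.21 at 40 h (limma adjusted p = 0.839). The genotypes' P4 effects differed at 40 h by 1.14 ± 0.29 (PRKO minus WT; 95% interval 0.54 to 1.75), which did not pass limma's adjusted threshold (adjusted p = 0.225, unadjusted p = 8.0e-04). A p over the threshold leaves the dependence of the fall on the receptor unsettled.

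Mmp11, stromelysin-3, which is activated inside the cell and made mainly by stromal cells, was the only other member called. In WT uteri at 40 h it had 104.4, 111.2 and 92.11 with P4, against 128.7, 151.1 and 181.1 with vehicle, without overlap. The log2 difference was −0.46 ± 0.11 (95% interval −0.69 to −0.22; limma adjusted p = 0.0382), with means of 102.6 ± 9.68 for P4 and 153.6 ± 26.3 for vehicle (SD, n = 3 each). The probe set is dim, at percentile 21 of mean signal. The call was lost when any 1 of 5 of the 6 WT arrays of 40 h was left out, with adjusted p between 0.0742 and 0.233; it was kept only without vehicle replicate 1.

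In PRKO uteri at 40 h Mmp11 had 125.4, 144.1 and 128.2 with P4, against 127.1, 151.7 and 165.6 with vehicle, and these overlapped (log2 difference −0.13 ± 0.11, limma adjusted p = 0.752). The difference between genotypes was 0.33 ± 0.16 (PRKO minus WT, limma adjusted p = 0.545). At 4 h the WT difference was −0.15 ± 0.11 (limma adjusted p = 0.983), and the difference between times was −0.31 ± 0.16 (limma adjusted p = 0.845).

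**Figure D2:**
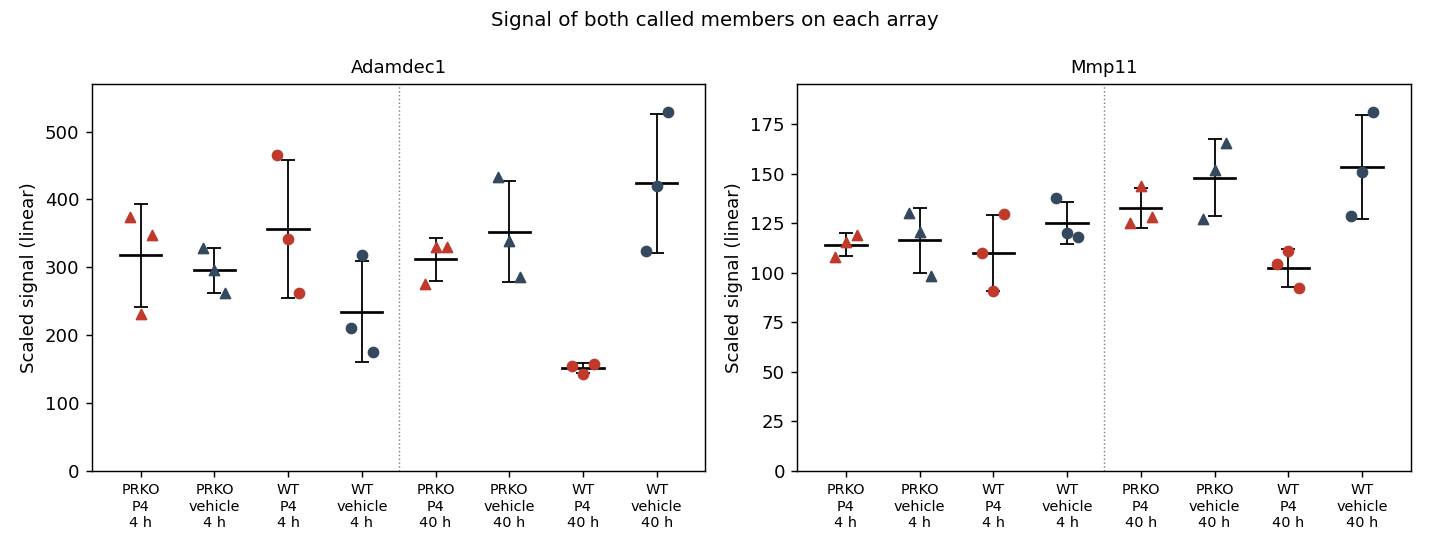
Scaled signal (linear axis from 0) of Adamdec1 and Mmp11 on each of the 24 arrays by group, with points for arrays (triangles PRKO, circles WT), a horizontal line for the mean of 3 arrays and whiskers for their SD. The 3 WT P4 arrays at 40 h lie below the 3 WT vehicle arrays at 40 h for both genes, at 142.6 to 156.7 for Adamdec1 and 92.11 to 111.2 for Mmp11.

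The stromelysin promoters are shown because Mmp11 was called while Mmp3 and Mmp10, the other stromelysins, were not. In WT at 40 h Mmp10 differed by −0.195 ± 0.183 (limma adjusted p = 0.759), with all P4 arrays below all vehicle arrays. Mmp3 differed by 0.030 ± 0.085 (limma adjusted p = 0.937), with overlap. Whether the responses of these genes differ from each other was not tested. RefSeq promoter windows of GRCm38.p6, from 250 bases before to 50 after a gene start, were matched for 20 of the 34 member genes in 24 windows. Capitals mark 3 motifs searched: an AP-1 site (TGANTCA), a progesterone receptor half-site (AGAACA) and a TATA box (TATAAA), each on either strand.
Mmp11, chr10:75932453-75932752, minus strand: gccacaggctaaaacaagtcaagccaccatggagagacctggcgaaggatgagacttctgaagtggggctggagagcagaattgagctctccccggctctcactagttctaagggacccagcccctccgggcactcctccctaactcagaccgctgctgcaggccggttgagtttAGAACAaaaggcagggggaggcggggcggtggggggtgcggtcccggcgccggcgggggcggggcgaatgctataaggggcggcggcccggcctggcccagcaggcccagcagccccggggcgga
Mmp3, chr9:7445572-7445871, plus strand: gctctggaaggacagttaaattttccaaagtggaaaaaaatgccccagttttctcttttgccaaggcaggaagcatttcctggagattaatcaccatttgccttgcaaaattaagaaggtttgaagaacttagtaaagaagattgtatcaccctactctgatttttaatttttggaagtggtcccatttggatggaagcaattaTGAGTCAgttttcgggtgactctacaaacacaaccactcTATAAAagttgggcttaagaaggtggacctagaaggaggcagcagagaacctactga
Mmp10, chr9:7502092-7502391, plus strand: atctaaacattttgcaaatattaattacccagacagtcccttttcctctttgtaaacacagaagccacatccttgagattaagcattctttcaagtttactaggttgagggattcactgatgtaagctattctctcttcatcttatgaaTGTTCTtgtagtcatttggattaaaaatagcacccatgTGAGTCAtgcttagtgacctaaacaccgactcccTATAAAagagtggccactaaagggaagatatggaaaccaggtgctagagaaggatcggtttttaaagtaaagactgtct

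The Mmp11 window holds a half-site 75 bases upstream of the start and neither of the other motifs. The Mmp3 window holds an AP-1 site 46 bases and a TATA box 7 bases upstream, and the Mmp10 window an AP-1 site 63 bases, a TATA box 29 bases and a half-site on the minus strand 101 bases upstream. AP-1 letters occurred in 6 of 24 member windows and in 7.81% of all 32851 windows, half-site letters in 5 of 24 and in 19% of all, and TATA letters in 7 of 24 and in 13.6% of all. A match describes letters only.

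At 4 h of P4 in WT uteri no member passed the limma adjusted threshold, where 0.708% of all probe sets did; 5 of 44 had an unadjusted p under 0.05, against 6.23% of all probe sets. The P4 and vehicle arrays did not overlap for 3 of 44 members, or 6.82%, against 6.66% of all. Members had a median log2 difference of −0.03 and all probe sets 0.00. The largest difference was Mmp12, macrophage elastase, an elastin-degrading MMP of macrophages. Its brighter probe set had 254.4, 365.8 and 531.5 with P4 at 4 h, against 787.6, 429.1 and 1405 with vehicle, and its dimmer one had 58.01, 110.7 and 97.59 with P4, against 79.88, 115.8 and 496.6 with vehicle. Vehicle replicate 3 was the highest of all 24 arrays in both, and the groups overlapped in both. The mean log2 signal of macrophage markers was 8.87 on vehicle replicate 3, against 8.41 and 8.65 on the other vehicle arrays. On the P4 arrays it was 8.51, 8.55 and 8.68. WT arrays at 40 h had 8.77, 8.92 and 8.88 with P4 and 8.65, 8.77 and 8.86 with vehicle. The brighter Mmp12 probe set averaged 422.2 ± 40.7 with P4 and 442.8 ± 74.4 with vehicle at 40 h (SD, n = 3 each). The part of macrophages in the Mmp12 difference was not tested.

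For Mmp12 the log2 differences at 4 h were −1.03 ± 0.31 (limma adjusted p = 0.224) and −0.80 ± 0.36 (limma adjusted p = 0.74). Without vehicle replicate 3 the brighter probe set gave −0.62 (limma adjusted p = 0.535), and without vehicle replicate 2, an array with a high Gapdh ratio, −1.44 (limma adjusted p = 0.0238). Without both arrays of high Gapdh ratio it was −1.43 and not called (limma adjusted p = 0.0914). The dimmer probe set lay between −1.24 (without vehicle replicate 1) and −0.12 (without vehicle replicate 3) with 1 array left out, and was called in none of these fits. In PRKO uteri the brighter probe set had 567.4, 305.9 and 444.1 with P4 at 4 h, against 609.2, 347.3 and 395.7 with vehicle. These overlapped, and the genotypes' effects differed by 0.99 ± 0.44 (PRKO minus WT, limma adjusted p = 1). The dimmer probe set was lower with P4 in PRKO uteri at 4 h too, by −0.24 ± 0.36. There its P4 and vehicle signals did not overlap, but it was not called. Its genotype difference at 4 h was smaller, at 0.55 ± 0.51 (PRKO minus WT), and not called.

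**Figure D3:**
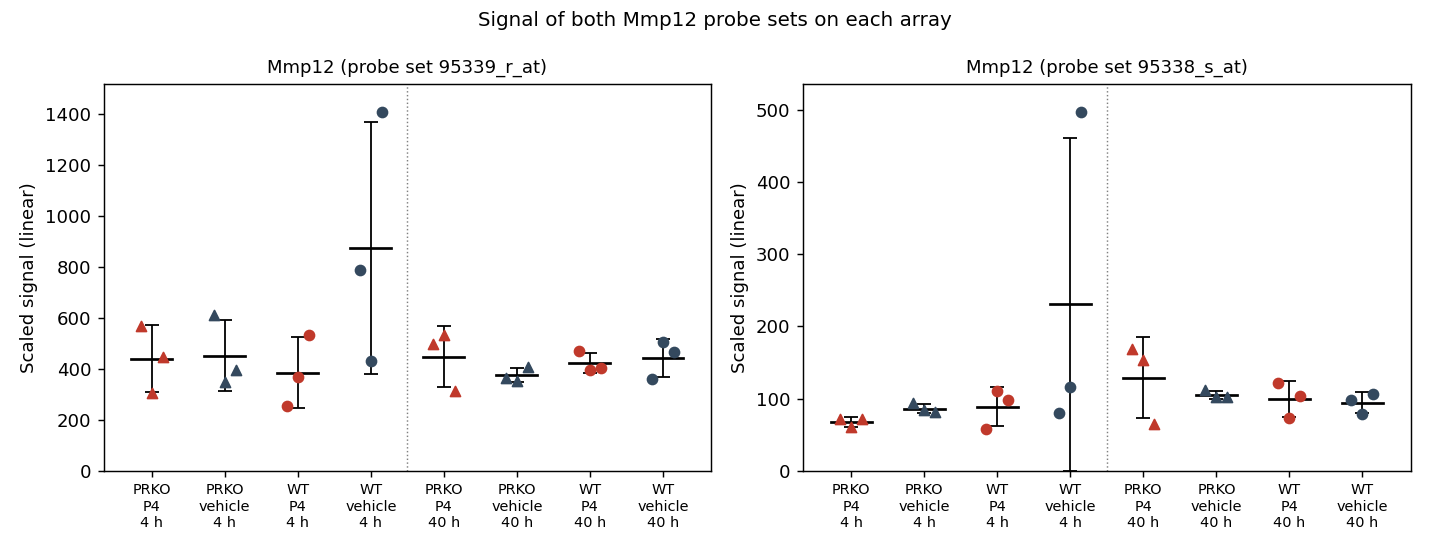
Scaled signal (linear axis from 0) of the 2 Mmp12 probe sets on each of the 24 arrays by group, with points for arrays (triangles PRKO, circles WT), a horizontal line for the mean of 3 arrays and whiskers for their SD. WT vehicle replicate 3 at 4 h stands highest in both, at 1405 and 496.6.

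Matrilysin, the collagenases and the gelatinases had smaller differences and no calls. Mmp7, matrilysin, an epithelial MMP, differed by −0.25 ± 0.14 in WT at 4 h and by 0.15 ± 0.14 in WT at 40 h, uncalled at both. Mmp8 and Mmp13, the collagenases, lay between −0.10 and 0.01 in WT at 4 h and between −0.06 and −0.04 in WT at 40 h. Mmp9, gelatinase B, differed at its brighter probe set by 0.16 ± 0.10 in WT at 4 h, where P4 arrays had 403, 436.4 and 373.5 and vehicle arrays 367.6, 361.6 and 341.9. The P4 arrays were all above the vehicle arrays, but the limma adjusted p was 0.946. The dimmer Mmp9 probe set went the other way, by −0.115 ± 0.089 (limma adjusted p = 0.983), with overlap. The 4 gelatinase probe sets, of Mmp2 and Mmp9, lay between −0.121 and 0.163 in WT at 4 h. In WT at 40 h they lay between −0.086 and 0.031.

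At 40 h in WT uteri 2 of 44 members were called, both lower, a share of 4.55% against 1.55% of all probe sets called in either direction and 0.821% called lower; 4 of 44 had an unadjusted p under 0.05, against 11.7% of all. The arrays of the P4 and vehicle groups did not overlap for 8 of 44 members, 4 above and 4 below, or 18.2%, against 19.8% of all probe sets (9.77% above, 10% below). The members' median log2 difference was 0.03, and that of all probe sets 0.00. By role, 1 of 3 stromelysins and Adamdec1 fell, and none of the collagenases, gelatinases, membrane-type MMPs, TIMPs, ADAMs of either class or Adamts1 was called.

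**Figure D4:**
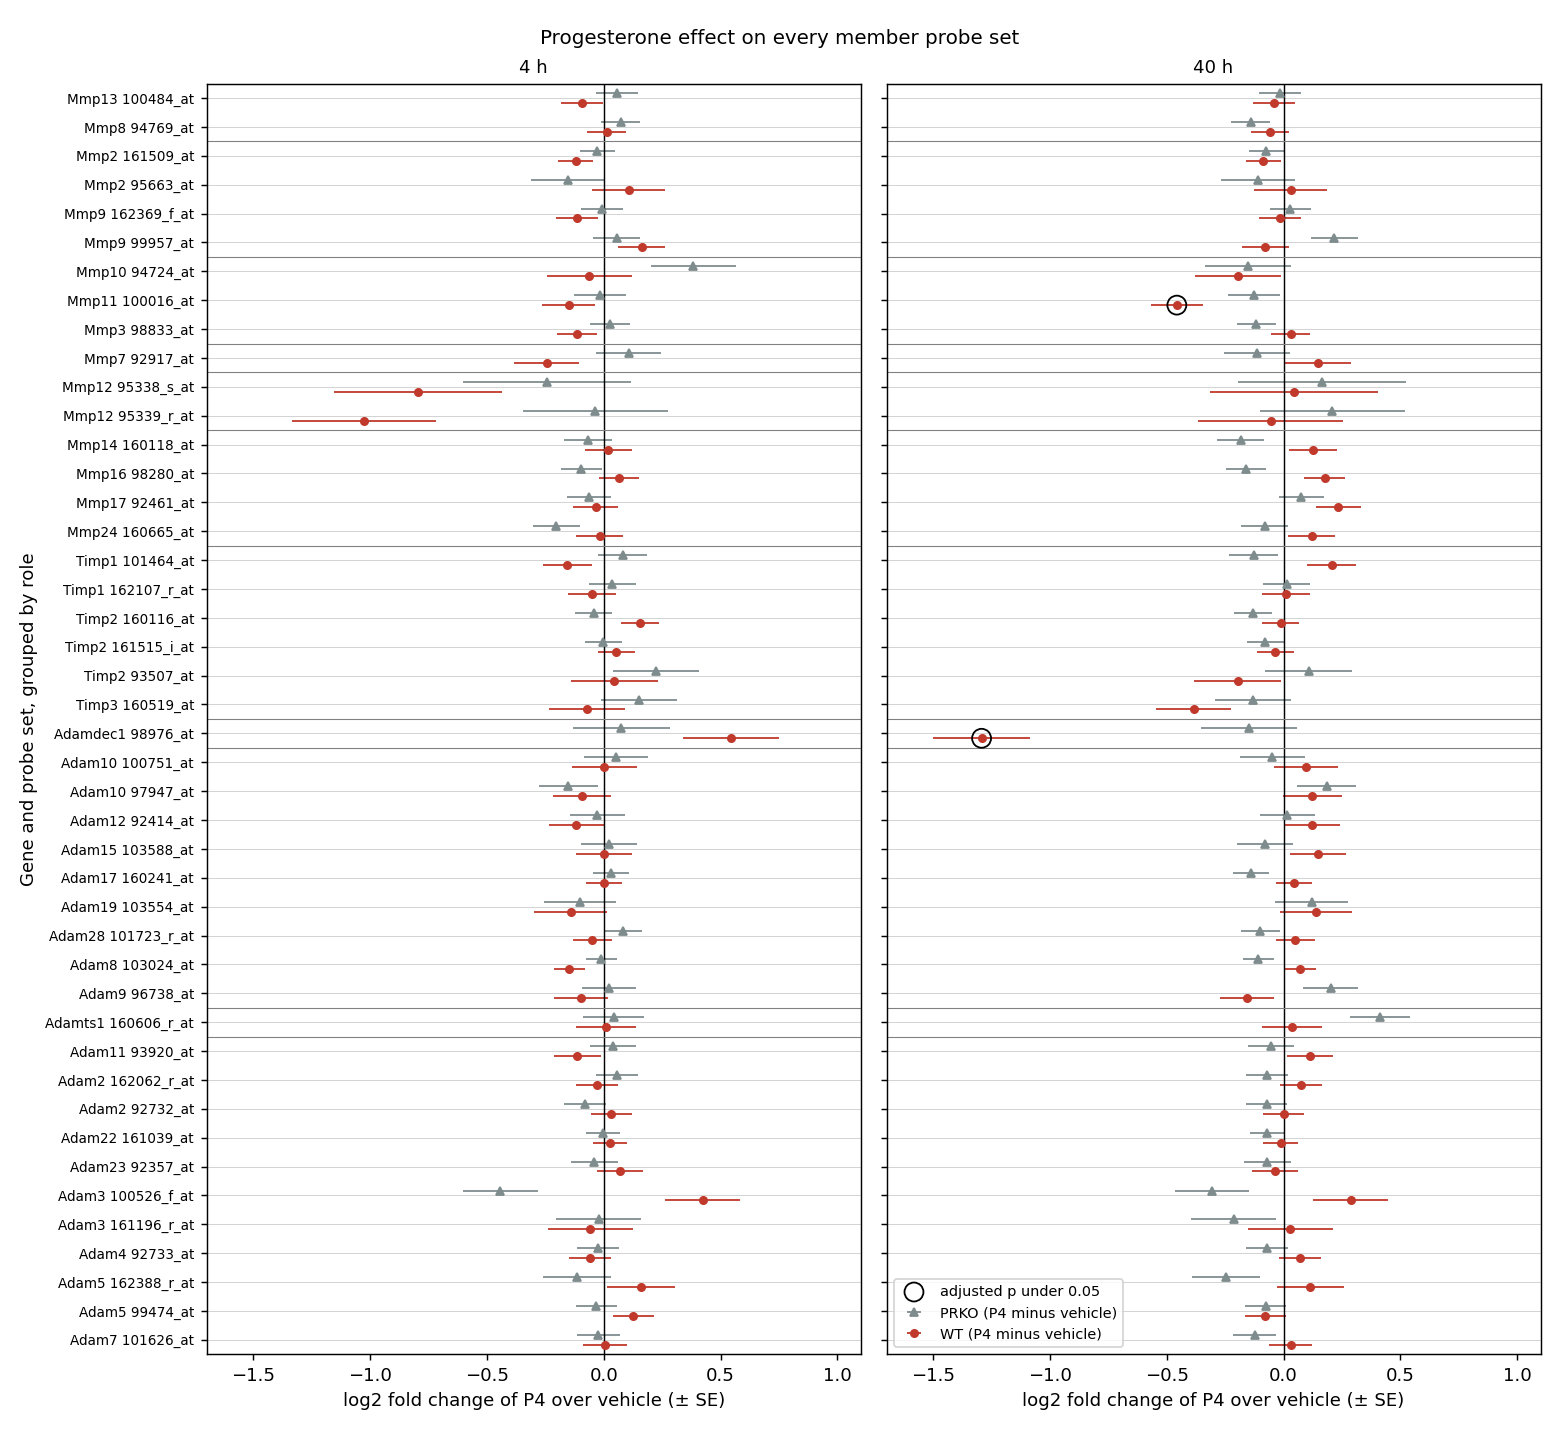
Log2 difference of P4 against vehicle for every member probe set, in PRKO (triangles) and WT (circles) uteri at 4 h and 40 h, with lines for ± 1 SE and rings for calls. At 40 h in WT the ringed points of Adamdec1 (−1.29) and Mmp11 (−0.46) lie farthest below 0; the other members in WT lie between −0.38 and 0.29.

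The 4 membrane-type MMPs, which act at the cell surface, were all on the positive side in WT at 40 h, between 0.12 and 0.23, and none was called. Mmp17 had 72.95, 90.42 and 78.02 with P4 at 40 h, against 67.78, 62.86 and 59.71 with vehicle, without overlap (0.23 ± 0.10, limma adjusted p = 0.3). Mmp14, which activates the proenzyme of MMP2, had 2487, 2398 and 2081 with P4, against 2115, 2055 and 2184 with vehicle, with overlap (0.13 ± 0.10, limma adjusted p = 0.705). In PRKO uteri Mmp14 had 1973, 2112 and 1986 with P4 at 40 h, against 2498, 2241 and 2181 with vehicle, all below (−0.18 ± 0.10, limma adjusted p = 0.702).

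Mmp16, another membrane-type member, lay on opposite sides in the genotypes. At 40 h it had 149.4, 135.2 and 151.6 with P4 in PRKO uteri, against 153.9, 174.9 and 170.3 with vehicle, all below. In WT uteri at 40 h it had 194.1, 180.9 and 171.7 with P4, against 156.6, 167.6 and 148.6 with vehicle, all above. The genotypes' effects differed by −0.34 ± 0.12 (PRKO minus WT; 95% interval −0.59 to −0.08), which limma did not call (adjusted p = 0.462), and for Mmp14 by −0.31 ± 0.14 (limma adjusted p = 0.538).

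Of the TIMPs, none was called. Timp3, an inhibitor that binds the extracellular matrix, had 2176, 2283 and 2243 with P4 in WT uteri at 40 h, against 2479, 3217 and 3134 with vehicle. The P4 arrays were all below (−0.38 ± 0.16, limma adjusted p = 0.32). In PRKO uteri at 40 h it had 2520, 3121 and 3271 with P4, against 2964, 3222 and 3548 with vehicle, with overlap. Its difference there was −0.13 ± 0.16 (limma adjusted p = 0.817).

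Timp1, a secreted inhibitor, ran the other way at 40 h. Its brighter probe set had 1047, 1124 and 1161 with P4 in WT uteri at 40 h, against 932, 988.3 and 952.3 with vehicle, all above (0.21 ± 0.10, limma adjusted p = 0.458). PRKO uteri at 40 h had 868.4, 891.8 and 958.9 with P4, against 907.3, 1087 and 990.4 with vehicle, with overlap. The effects of the genotypes differed by −0.33 ± 0.15 (PRKO minus WT, limma adjusted p = 0.538). Timp2, which also takes part in MMP2 activation, had 1603, 1286 and 1143 with P4 in WT uteri at 40 h at its brightest probe set, against 1687, 1416 and 1501 with vehicle, with overlap (−0.20 ± 0.18, limma adjusted p = 0.759). The dimmer probe sets of Timp1 and Timp2 lay between −0.04 and 0.01 in WT at 40 h.

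**Figure D5:**
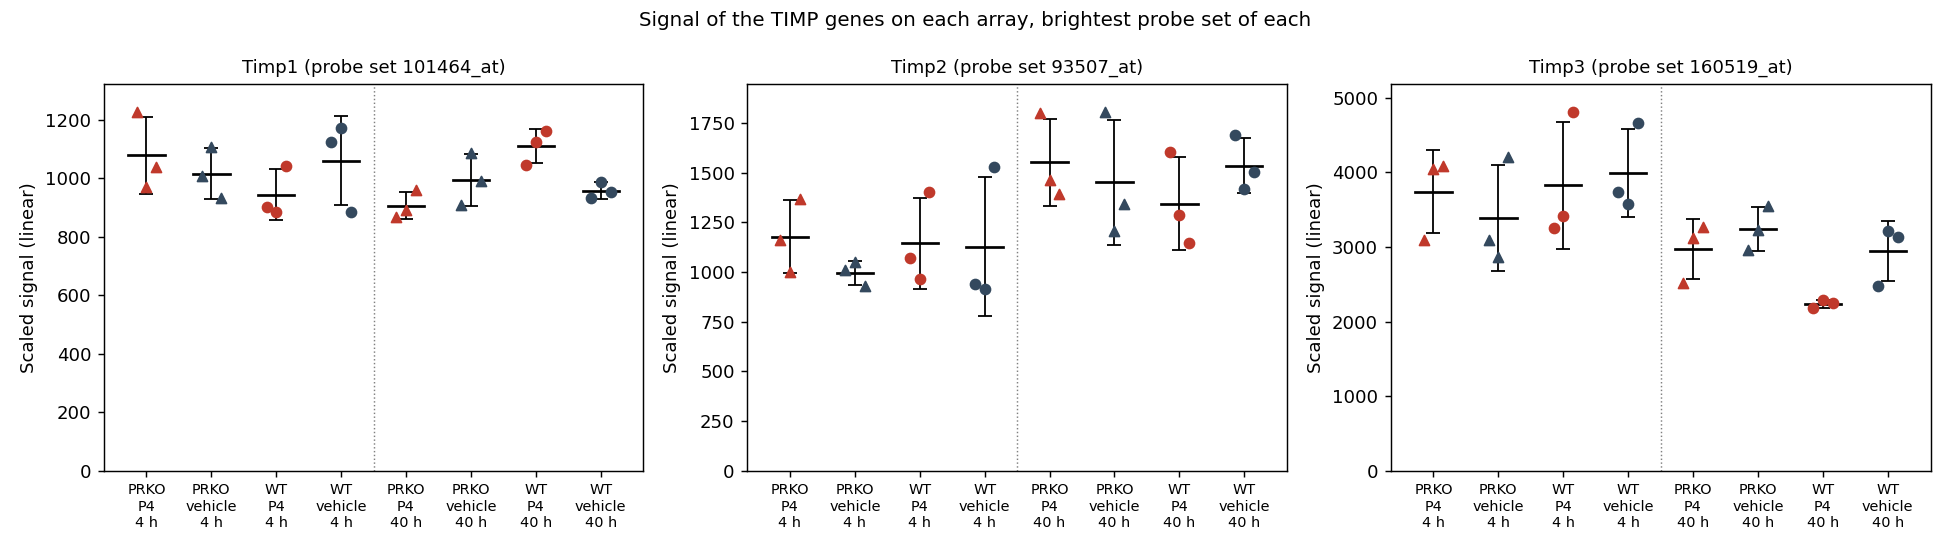
Scaled signal (linear axis from 0) of the brightest probe set of Timp1, Timp2 and Timp3 on each of the 24 arrays by group, with points for arrays (triangles PRKO, circles WT), a horizontal line for the mean of 3 arrays and whiskers for their SD. In WT at 40 h the Timp3 P4 arrays, 2176 to 2283, lie below the vehicle arrays, 2479 to 3217, and the Timp1 P4 arrays, 1047 to 1161, lie above theirs, 932 to 988.3.

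The sheddase ADAMs, among them Adam10 and Adam17, which release Notch and TNF family ectodomains, had small differences. Their 9 probe sets lay between −0.15 and 0.00 in WT at 4 h and between −0.16 and 0.15 in WT at 40 h, 8 of 9 on the positive side at 40 h, and none was called. Adam9, a sheddase made in many tissues, had 208.7, 235.1 and 218.6 with P4 in PRKO uteri at 40 h, against 190.2, 178.5 and 194.3 with vehicle, without overlap (0.20 ± 0.12, limma adjusted p = 0.702).

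The 11 probe sets of ADAMs without a catalytic site or of the reproductive tract lay between −0.11 and 0.42 in WT at 4 h. In WT at 40 h they lay between −0.078 and 0.287. In PRKO uteri at 40 h all were negative, between −0.307 and −0.053, where all probe sets of the array had a median of −0.043. None was called. Adam3, an ADAM that mouse sperm need for fertility, gave the highest value in WT at both times at 1 of its 2 probe sets. In WT at 40 h all P4 arrays of that probe set were above all vehicle arrays (0.287 ± 0.160, limma adjusted p = 0.525). That probe set had 82.75, 99.29 and 93.45 with P4 in PRKO uteri at 4 h, against 154.3, 133.6 and 121.9 with vehicle, all below, and 141.5, 170.1 and 117 with P4 in WT uteri at 4 h, against 80.82, 105.8 and 107.5 with vehicle, all above. The difference between genotypes was −0.87 ± 0.23 (PRKO minus WT; unadjusted p = 9.6e-04; limma adjusted p = 0.319), while the other Adam3 probe set differed by 0.04 ± 0.26 (limma adjusted p = 1). The suffix of the dimmer probe set, which gave the values above, marks probes shared within a gene family.

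Adamts1, a protease of proteoglycans and a known target of the progesterone receptor in the mouse ovary, had 29.22, 41.04 and 31.06 with P4 in PRKO uteri at 40 h, against 19.64, 13.15 and 19.09 with vehicle. All P4 arrays were above (0.41 ± 0.13, limma adjusted p = 0.702), but these are among the dimmest signals of the array. In WT uteri its difference was 0.01 at 4 h and 0.04 at 40 h.

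In PRKO uteri limma called no member at either time, nor any other probe set (0% of 12422). At 4 h 2 of 44 members had an unadjusted p under 0.05, against 1.91% of all probe sets, and at 40 h 2 of 44, against 6.71%. At 4 h the arrays did not overlap for 2 of 44, or 4.55%, against 4.33% of all. At 40 h the arrays did not overlap for 12 of 44, 2 above and 10 below, or 27.3%, against 22.3% of all (5.85% above, 16.4% below), and the members' median log2 difference was −0.08 against −0.04 over all. The difference in P4 effect between genotypes was called for no member at 4 h (0.0966% of all probe sets; 2 of 44 at an unadjusted p under 0.05, against 3.49%) or at 40 h (0.105% of all; 9 of 44, or 20.5%, at an unadjusted p under 0.05, against 9.12%). Those 9 were Adamdec1, Mmp11, Adam9, Adamts1 and Mmp9 with PRKO above WT, and Adam3, Mmp14, Mmp16 and Timp1 with PRKO below WT. For Mmp9, Adam3 and Timp1 only 1 probe set was under 0.05. The other probe set differed by 0.045 for Mmp9, −0.242 for Adam3 and 0.002 for Timp1.

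PRKO and WT vehicle uteri differed for no member under limma's adjusted test at 4 h (0.185% of all probe sets, 0.153% higher in PRKO; 4 of 44 at an unadjusted p under 0.05, against 5%) or at 40 h (0.0644% of all; 1 of 44, against 3.08%). The arrays of the genotypes did not overlap for 5 of 44 at each time, or 11.4%, against 6.04% of all probe sets at 4 h and 10.3% at 40 h. The brighter Mmp9 probe set gave the lowest unadjusted p at each time, and its direction differed. Its signal was 454.7, 393.6 and 455.1 in PRKO vehicle uteri at 4 h, against 367.6, 361.6 and 341.9 in WT vehicle uteri, and 393.7, 427.7 and 504.8 in PRKO vehicle uteri at 40 h, against 484.4, 594 and 595.4 in WT vehicle uteri. The log2 differences were 0.26 ± 0.10 at 4 h (limma adjusted p = 0.766) and −0.32 ± 0.10 at 40 h (limma adjusted p = 0.936). The dimmer Mmp9 probe set differed by 0.061 ± 0.089 at 4 h and −0.118 ± 0.089 at 40 h. These vehicle arrays also enter the P4 comparisons above. Over time, 1 of 44 members, Adamdec1, differed in its WT P4 effect, being lower, against 0.475% of all probe sets called in either direction, 0.217% higher and 0.258% lower. 4 of 44 had an unadjusted p under 0.05, against 6.43% of all.

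Genes that act with these proteases were read from 3 lists, against 0.733% of all probe sets called higher and 0.821% called lower in WT at 40 h. Each listed gene was read only at its brightest probe set, whereas these shares cover all probe sets, dim ones included. The counts and shares are therefore not on the same footing, and other probe sets of the listed genes are not given. Of 25 measured partners of pericellular proteolysis, such as plasminogen activators and other metallopeptidases, 1 was higher and none lower in WT at 40 h: Mme, the membrane peptidase neprilysin, by 1.06 ± 0.23 (limma adjusted p = 0.0202). Of 19 matrix substrates 6 were higher and none lower, with fibrillar collagen genes Col1a1 at 0.78 ± 0.14, Col1a2 at 0.79 ± 0.14, Col3a1 at 0.91 ± 0.16 and Col5a2 at 0.66 ± 0.10, and the matrix proteins Sparc at 0.57 ± 0.13 and Vcan at 0.65 ± 0.15. None of 22 substrates of ADAM shedding was called in any of the 9 comparisons. In PRKO uteri no probe set of the array was called, so the lists show nothing of their own there.

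Markers of other cells also differed between these arrays. They are given as the summed signal of each list, with each gene read at its brightest probe set. The background over all probe sets, dim ones included, was 0.733% called higher and 0.821% called lower in WT at 40 h. In WT uteri at 40 h the P4 and vehicle arrays did not overlap for 9 of the 12 lists. Of all single probe sets, 19.8% did not overlap in that comparison, a share that is not for sums over a list. Some lists share genes (Ltf, Hoxa10, Hoxa11 and Foxa2), so the lists are not separate results.

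Of these, 4 lists were lower with P4 in WT at 40 h. The sum of 9 adipocyte markers was 6092 to 10420 with P4, against 14390 to 16500 with vehicle, and 5 of 9 fell. For 12 epithelial markers it was 9960 to 10990 with P4, against 11360 to 12120 with vehicle, and 2 of 12 fell. For 7 dendritic and B cell markers it was 6482 to 7631 with P4, against 8828 to 10900 with vehicle, and 2 of 7 fell; for 7 neutrophil markers it was 1540 to 1691 with P4, against 1828 to 2338 with vehicle, and none was called.

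The other 5 lists were higher with P4 in WT at 40 h. The sum of 12 endometrial stroma markers was 37140 to 42030 with P4, against 26750 to 32860 with vehicle, and 5 of 12 rose. Col1a1, Col1a2, Col3a1 and Dcn are also on the matrix list, so the rise of the collagen genes among them counts in both lists. For 8 smooth muscle markers it was 37650 to 40350 with P4, against 32480 to 34270 with vehicle, and for 12 macrophage markers 6706 to 7096 with P4, against 5983 to 6569 with vehicle, with none called in either list. For 6 skeletal muscle markers it was 3379 to 3549 with P4, against 1763 to 2072 with vehicle. Of these 1, the actin gene Acta1, rose, and the median log2 difference of the 6 was 0.085. For 7 uterus markers it was 8621 to 9095 with P4, against 7023 to 7567 with vehicle, and 1 rose. The lists for endothelium, T and NK cells and mast cells overlapped, with 1 of 9 endothelial markers lower.

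In PRKO uteri at 40 h, where no probe set was called, 6 lists did not overlap, beside 22.3% of all single probe sets. The sum of adipocyte markers was 12820 to 15040 with P4, against 15580 to 17860 with vehicle, and that of neutrophil markers 1607 to 1706 with P4, against 1749 to 2092 with vehicle. Stroma markers summed to 33000 to 33990 with P4, against 28390 to 31110 with vehicle, and smooth muscle markers to 32430 to 34150 with P4, against 30670 to 31210 with vehicle. Skeletal muscle markers summed to 2215 to 3589 with P4, against 1499 to 2171 with vehicle. Only 2 of those 6 markers had a positive log2 difference there (median −0.139), since a sum weighs bright markers most. Uterus markers summed to 8037 to 8215 with P4, against 6726 to 7734 with vehicle. No marker was at 0 on any array. The part of these cells in the Adamdec1 and Mmp11 results was not tested. In 1 fit the adipocyte score, the mean log2 signal of the adipocyte markers, was a covariate. That score was 8.7 to 9.29 with P4 and 9.7 to 9.96 with vehicle in WT at 40 h, without overlap. Such a fit separates the score from the treatment poorly, so it does not settle the part of adipocytes. With the adipocyte score as a covariate Adamdec1 differed in WT at 40 h by −1.37 ± 0.37 (limma adjusted p = 0.561) and Mmp11 by −0.43 ± 0.20 (limma adjusted p = 1). In whole uteri, fewer cells of a type and less RNA per cell cannot be told apart.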

How the data were processed

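Uterine RNA of 24 samples was measured on Affymetrix arrays. The deposited values are linear signal intensities, made with MAS5 per the submitters' processing notes, with version, target scaling and annotation build not given in the sources used here. No read depth applies, and the number of arrays (3 per group) limits precision. From the deposited intensities, 66 control probe sets of 12488 were removed, each array was scaled to a mean of 500 after trimming 2% at each end, and log2(signal + 32) was fitted with limma 3.58.1 in R 4.3.3. The fit had 8 group means over all 24 arrays, an intensity trend in the prior variance and 9 comparisons; p-values were adjusted by Benjamini-Hochberg over 12422 probe sets in each, with a threshold of 0.05. A fold on this scale understates changes of dim probe sets. With 3 arrays against 3, no exact permutation test was used.

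Genes were named from the platform annotation, and all 44 members matched a RefSeq gene identifier. Members to name were the called ones, the 5 highest and 5 lowest in WT at each time, and the 10 brightest. Of these, Adam12 and Adam15 entered only the range of the sheddase ADAMs. In WT at 4 h the brighter Adam5 probe set differed by 0.160 ± 0.145 and the brighter Timp1 probe set by −0.157 ± 0.105. A dimmer Timp2 probe set differed there by 0.155 ± 0.080, and none of these was called. Adam9, Adamts1 and the other genes with an unadjusted p under 0.05 were named after their values were seen. The members, lists and markers were chosen with earlier results of these data known. Same-numbered arrays deviated together in WT at 4 h (correlations 0.114, 0.516 and 0.350), where a replicate block changed no member's call; in the other comparisons at least 1 pair was at or under 0.1. Simulated data for WT at 40 h covered 12422 probe sets in 10 runs, with 200 probe sets changed in each. Of the changed ones, 73% were recovered at a log2 change of 0.5, 96.2% at 1 and 99.9% at 2. Unchanged probe sets made up 5.13% of calls. The simulated noise was independent between arrays, with 1 SD per probe set in all groups, whereas some real arrays deviated together. These shares are averages over probe sets and not the power for any 1 member. Alternatives were offset 16, quantile or no scaling, a filter leaving out the dimmest 25%, a replicate block, arrays of 1 time, 22 arrays without high Gapdh ratios, an adipocyte covariate, leaving out each array and, added after seeing the data, a prior variance without trend.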

Additional observations from a re-analysis of the deposited data

Results flagged for a closer look

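The P4 effect on Adamdec1 in WT uteri differed between 40 h and 4 h by −1.84 on the log2 scale (SE 0.29, limma adjusted p = 0.00249). The difference itself was tested. Signals were 356.2 ± 102 with P4 and 234.5 ± 74.2 with vehicle at 4 h, and 151.1 ± 7.47 with P4 and 423.9 ± 102 with vehicle at 40 h (SD, n = 3 each). It was called in 12 of 12 fits that left out 1 array each, between −2.05 and −1.64 with adjusted p up to 0.0114. Without both arrays of high Gapdh ratio it was −2.06 ± 0.31 (limma adjusted p = 0.00499). With the adipocyte score as a covariate it was −1.90 ± 0.39 and not called (limma adjusted p = 0.0652). In WT at 40 h that score did not overlap between P4 and vehicle, so this fit does not settle the part of adipocytes.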

How the results depend on the processing

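Of 140 recomputed counts of called members, 131 stayed within 1.5 times of the reported count. A count of 0 against 0 was taken as the same, and most comparisons had a reported count of 0. That share therefore says little of the calls made. In WT at 40 h Adamdec1 was called in 13 of 14 alternatives and Mmp11 in 7 of 13. Of 677 recomputed member values, 667 kept their side of the threshold, 8 lost a call, 2 gained one and none of the called values changed sign; 34 values uncalled in both had the other sign. In WT at 40 h the count was 1 with the dimmest 25% left out, because Mmp11 was then not tested, 0 with the adipocyte covariate and 1 to 2 with 1 array left out. For the time difference it was 0 with the adipocyte covariate and 1 to 1 with 1 array left out. In WT at 4 h it was 0 to 1 with 1 array left out, the call being Mmp12 without vehicle replicate 2, and for the other 6 comparisons 0 to 0. With a replicate block the WT count at 40 h was 3: Adamdec1 (adjusted p = 0.00131), Mmp11 (0.0254) and Timp3 (−0.38, 0.0295); this pairing rests on numbers alone there, with correlations of 0.116, 0.142 and 0.069, and the block changed no other call. Adamdec1 in WT at 40 h was called in 6 of 6 fits with 1 array left out, between −1.46 and −1.13. With arrays of 40 h alone its genotype difference was 1.14 ± 0.22 (limma adjusted p = 0.062). Causes of the changed calls other than the dim filter's were not tested. Dim signal limits 20 of 44 members, and a p over the threshold does not show that a member did not respond.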

Other observations

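Among genes that act with these proteases, each read at its brightest probe set, 2 of 66 measured differed between PRKO and WT vehicle uteri at 4 h under limma's adjusted test. Of all probe sets, dim ones included, 0.185% were called in either direction and 0.153% higher. Plat, tissue plasminogen activator, was higher in PRKO by 0.43 ± 0.09 (adjusted p = 0.0419), and at 40 h by 0.43 ± 0.09 (adjusted p = 0.0824), where it was not called. Col18a1, whose product yields the fragment endostatin, was higher in PRKO by 0.67 ± 0.14 at 4 h (adjusted p = 0.0419) and by 0.24 ± 0.14 at 40 h (adjusted p = 1).

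3 collagen genes of 19 measured on the matrix list also differed in their WT P4 effect between 40 h and 4 h under limma's adjusted test, Col1a2 by 1.04, Col3a1 by 1.05 and Col5a2 by 0.65, against 0.475% of all probe sets called in either direction and 0.217% called higher. Col1a1, called in WT at 40 h, was not among them.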
